A study of Homo sapiens with 12 samples.

Results

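Ribosome assembly begins in the nucleolus, and 58 genes listed as nucleolar ribosome biogenesis factors were followed in 2 human lung cancer cell lines treated with EGFR inhibitors. Some of them, such as NOB1 and TSR1, act on late small subunit particles. The genes were chosen by name, as the rows of the deposited gene table whose symbol equals one of the 58, and all 58 were found among the 60591 genes of the table and were above the expression filter that left 19108 genes to test. The lines were PC9 and H1650, established non-small cell lung cancer lines that both carry an activating deletion in EGFR and that the labels give as wild-type in genotype. Each line had 2 libraries of cells taken at the time of drugging (T0, 0.1% DMSO, 0 h), 2 of cells kept for 36 h with 10 µM erlotinib, and 2 of cells kept for 36 h with 0.1 µM osimertinib, which makes 12 libraries in 6 groups. Erlotinib is a reversible EGFR inhibitor and osimertinib a covalent one, and their doses differed. The treated cells spent 36 h more in culture than those of T0, and vehicle-treated cells at 36 h were not analysed here, so drug and time in culture cannot be told apart in any change from T0.

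In the nucleolus, RNA polymerase I transcribes the ribosomal DNA into a long precursor RNA. Small nucleolar RNPs then guide its chemical modification and cleavage: box C/D particles methylate riboses and box H/ACA particles convert uridine to pseudouridine. The UTP-A and UTP-B complexes join the nascent transcript first and build, with many other factors, the small subunit processome, while a separate series of factors assembles the large subunit. Nucleolar chaperones and scaffold proteins such as nucleophosmin and nucleolin hold these steps together. Many of these genes are known targets of MYC, and growth factor signaling through EGFR is known to raise ribosome production in growing cells.

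Values are CPM, a gene's share of the reads of its library after TMM normalization. Library totals ran from 17961765 to 26346187 counted reads, so that a count of 0 would allow up to 3 reads, or 0.116 to 0.168 CPM, and this limit covers counting error only. A gene was called when edgeR's quasi-likelihood test gave a Benjamini-Hochberg adjusted p under 0.05 over all genes tested. The labels give 2 replicates per group, which the study describes as biological replicates. Whether they were separately treated cultures is not said, so p-values measure the spread between these libraries, part of which may be technical. The 7 epithelial markers (EPCAM, KRT7, KRT8, KRT18, KRT19, CDH1 and ELF3) were read in every library and summed to between 6304 and 13619 CPM. The 9 fibroblast, immune and endothelial markers summed to between 2.62 and 24.8 CPM, and DCN, LUM, PTPRC and CD3E had at most 5 reads in any library. COL3A1 had 0 reads in the 6 libraries of PC9 and up to 441 in those of H1650. CD14, CDH5, VWF and PECAM1 had at most 83, 62, 48 and 32 reads in any library.

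The factors fell as a group after 36 h with either inhibitor, and fell further in PC9 than in H1650. In PC9, 56 of 58 members were called lower with erlotinib and 56 with osimertinib, and 0 were called higher. Over all genes tested, 29.1% were called lower and 32.7% higher with erlotinib, and 28.7% lower and 32.7% higher with osimertinib. All members but NOP2 and PPAN had a mean over 10 CPM. Of the 10294 tested genes with such a mean, 4213 were called lower with erlotinib and 4214 with osimertinib. The median log2 fold change of the members was -1.07 with erlotinib and -1.22 with osimertinib, beside 0.07 and 0.06 over all genes tested. Of the members called lower, 31 had an estimated fall of more than 2-fold with erlotinib and 41 with osimertinib. Among all 19108 genes tested, 2485 and 2476 were called lower with such a fall. In H1650, 49 members were called lower with erlotinib and 46 with osimertinib, 0 were called higher, and no fall exceeded 2-fold. Falls of that size were also rarer over all genes in H1650, called for 502 and 464 of the 19108. There the share of all genes called lower was 18.5% with erlotinib and 17.9% with osimertinib, and the share called higher was 18.0% and 17.8%. Of the 10294 genes with a mean over 10 CPM, 2983 and 2877 were called lower in H1650. The members' median log2 fold change in H1650 was -0.48 and -0.46, beside 0.01 and 0.000 over all genes.

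Read together, the 58 genes took 0.916% and 0.954% of all counts in PC9 at T0, 0.430% and 0.465% with erlotinib, and 0.361% and 0.384% with osimertinib. In H1650 they took 0.661% and 0.691% at T0, 0.471% and 0.506% with erlotinib, and 0.470% and 0.490% with osimertinib. The treated groups did not overlap T0 in either line, and the lines, which differed at T0, lay closer together after treatment. Counts are shares of each library, so a fall of these transcripts and a rise of total RNA per cell cannot be told apart.

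**Figure D1:**
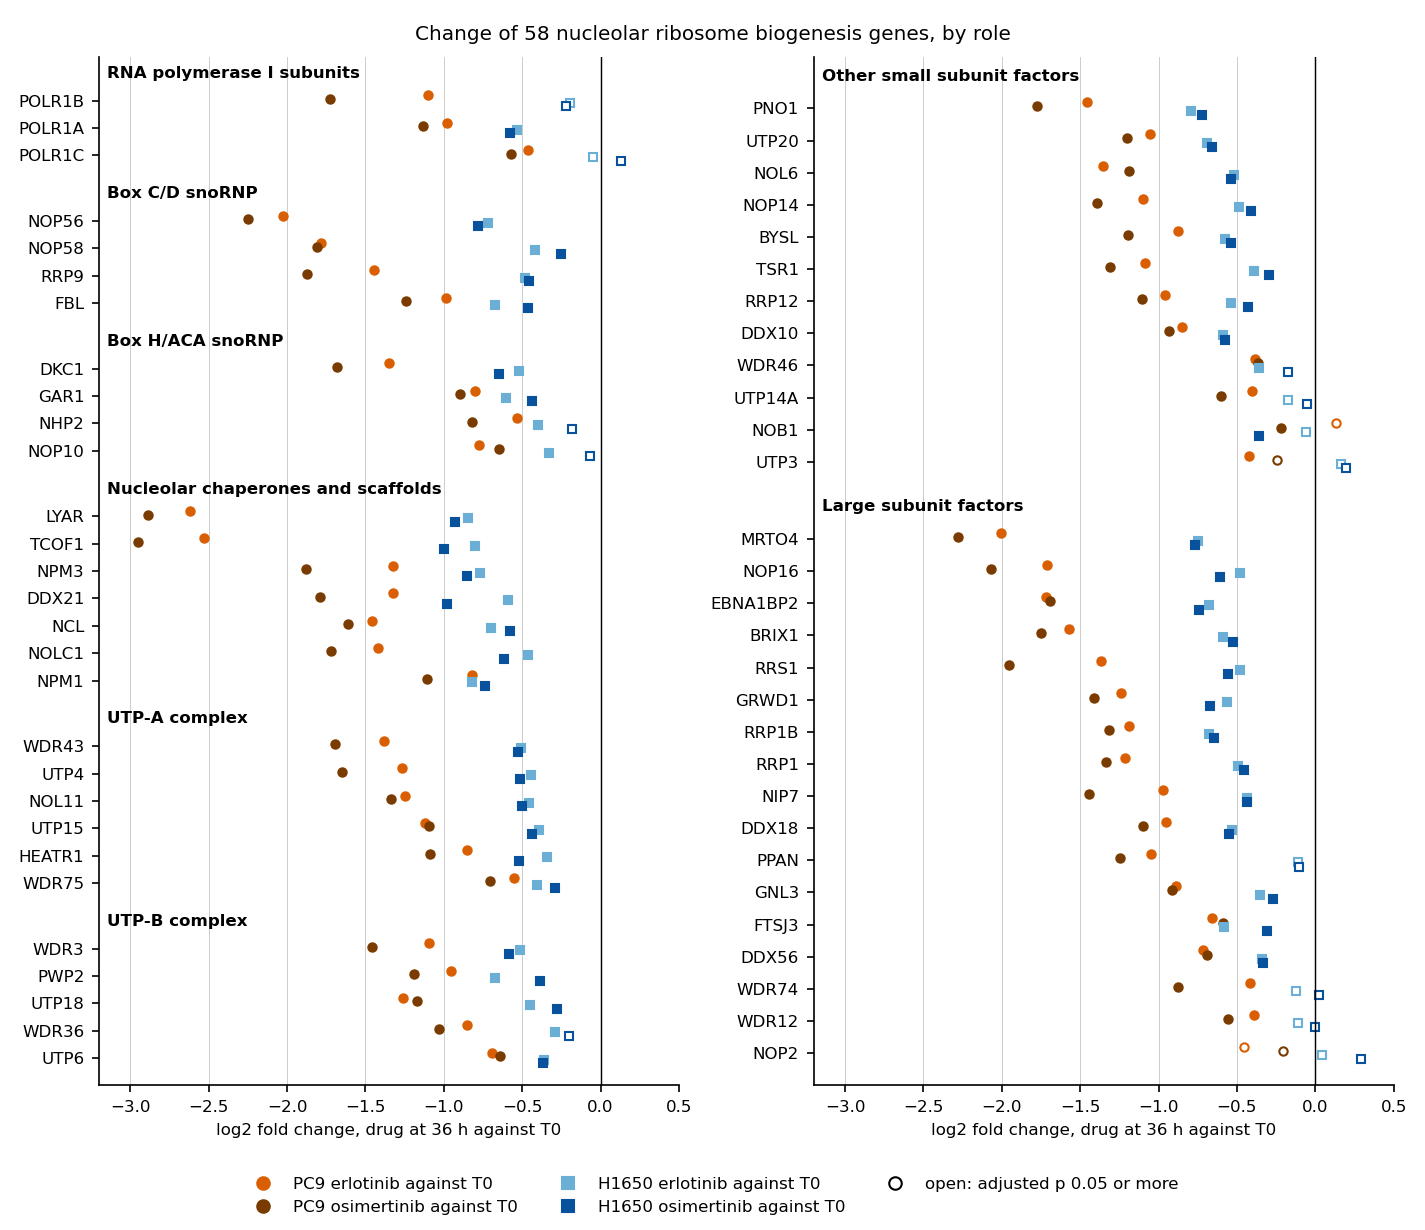
Estimated log2 fold change (x axis) of each of the 58 members (y axis), grouped by role, for each drug at 36 h against T0. Circles are PC9 and squares H1650, and open symbols did not pass an adjusted p of 0.05. Circles lie to the left of squares for most genes, and the 2 farthest left are LYAR and TCOF1.

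Of the 58 members, 45 (77.6%) were called lower in all 4 comparisons with T0, against 1751 of the 19108 genes tested (9.16%). Another 4, NHP2, NOP10, WDR36 and WDR46, were called lower in all but osimertinib-treated H1650. POLR1B, POLR1C, UTP14A, PPAN, WDR74 and WDR12 were called lower in PC9 with both drugs and in H1650 with neither. UTP3 was called lower only with erlotinib in PC9, and NOB1 with osimertinib in both lines but with erlotinib in neither. NOP2 was called in no comparison, and its counts are too few to judge it.

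The RNA polymerase I subunits POLR1A, POLR1B and POLR1C were each called lower with both drugs in PC9, and 1 of the 3, POLR1A, in H1650. POLR1A (ENSG00000068654, chr2:86020216-86106155 on the minus strand, coordinates of GENCODE 29 on GRCh38) encodes the largest subunit of the enzyme, and its reads in PC9 were 119 and 127 CPM at T0, 60.2 and 64.6 with erlotinib and 54.2 and 58.02 with osimertinib. In H1650 they were 173 and 170.2 CPM at T0, 111 and 126 with erlotinib and 117 and 113 with osimertinib. Treated libraries lay below T0 in both lines, with log2 fold changes in PC9 of -0.98 ± 0.08 (SE, adjusted p = 1.56e-11) and -1.13 ± 0.08 (SE, adjusted p = 9.39e-13) and in H1650 of -0.54 ± 0.08 (SE, adjusted p = 2.73e-06) and -0.58 ± 0.08 (SE, adjusted p = 8.44e-07). POLR1B (ENSG00000125630, chr2:112541915-112577150), the second-largest subunit, had 93.4 and 98.6 CPM at T0, 42.2 and 47.4 with erlotinib and 28.8 and 29.3 with osimertinib in PC9. Its H1650 libraries had 41.7 and 41.2 CPM at T0, 33.9 and 38.4 with erlotinib and 35.9 and 35.3 with osimertinib. H1650 libraries at T0 thus lay just below those of erlotinib-treated PC9, and the change in H1650 missed the threshold, at -0.20 ± 0.09 (SE, adjusted p = 0.0883) and -0.22 ± 0.09 (SE, adjusted p = 0.0554), against -1.10 ± 0.09 (SE, adjusted p = 5.95e-12) and -1.72 ± 0.09 (SE, adjusted p = 8.63e-16) in PC9. POLR1C (ENSG00000171453, chr6:43509702-43562419) is shared with RNA polymerase III and changed least of the 3. It had 26.2 and 23.8 CPM at T0, 17.7 and 18.6 with erlotinib and 16.2 and 17.5 with osimertinib in PC9, a change of -0.46 ± 0.11 (SE, adjusted p = 5.93e-04) and -0.57 ± 0.11 (SE, adjusted p = 6.54e-05). In H1650 its libraries had 18.6 and 20.3 CPM at T0, 18.99 and 18.7 with erlotinib and 22.1 and 20.5 with osimertinib, and they overlapped between T0 and erlotinib (log2 fold change -0.05 ± 0.11 (SE, adjusted p = 0.797), and with osimertinib 0.13 ± 0.11 (SE, adjusted p = 0.378)).

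The 4 box C/D proteins fell in all 4 comparisons, by a median log2 fold change of -1.61 and -1.84 in PC9, beside -0.58 and -0.46 in H1650 for erlotinib and osimertinib in turn. NOP56 (ENSG00000101361, chr20:2652145-2658393) is a core protein of these particles and had the highest mean CPM of the 4 over the 12 libraries. FBL had the higher group mean in treated PC9 and in osimertinib-treated H1650. NOP56 had 354 and 362 CPM at T0, 88.5 and 87.2 with erlotinib and 74.8 and 75.6 with osimertinib in PC9, a 4.07-fold and 4.76-fold fall. In H1650 it had 166 and 169.9 CPM at T0, 98.5 and 106 with erlotinib and 94.6 and 101 with osimertinib, a 1.65-fold and 1.72-fold fall. PC9 cells had the higher level of NOP56 at T0 and the lower one after treatment. The log2 changes were -2.03 ± 0.07 (SE, adjusted p = 2.13e-19) and -2.25 ± 0.07 (SE, adjusted p = 2.92e-20) in PC9 and -0.72 ± 0.07 (SE, adjusted p = 5.09e-09) and -0.78 ± 0.07 (SE, adjusted p = 1.14e-09) in H1650. FBL (ENSG00000105202, chr19:39834458-39846414), fibrillarin, the methyltransferase of the particle, fell least of the 4 in PC9, with 219 and 219 CPM at T0, 109 and 113 with erlotinib and 86.6 and 98.8 with osimertinib. Its H1650 libraries had 139 and 135 CPM at T0, 82.8 and 89.5 with erlotinib and 98.4 and 101 with osimertinib. No treated library reached the T0 range of its line, and the changes were -0.99 ± 0.08 (SE, adjusted p = 4.21e-12) and -1.24 ± 0.08 (SE, adjusted p = 3.68e-14) in PC9 and -0.67 ± 0.08 (SE, adjusted p = 6.08e-08) and -0.46 ± 0.08 (SE, adjusted p = 1.94e-05) in H1650. NOP58, the partner of NOP56, and RRP9, a protein of the U3 particle, completed the group.

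Among the box H/ACA proteins, all 4 were called lower in PC9 with both drugs, and in H1650 4 with erlotinib and 2 with osimertinib. DKC1 (ENSG00000130826, chrX:154762742-154777689), dyskerin, is the pseudouridine synthase of these particles and also binds telomerase RNA. Its PC9 libraries had 269 and 274 CPM at T0, 97.8 and 115 with erlotinib and 77.00 and 92.4 with osimertinib, changes of -1.35 ± 0.09 (SE, adjusted p = 3.72e-13) and -1.68 ± 0.09 (SE, adjusted p = 4.27e-15). Its H1650 libraries had 102 and 116 CPM at T0, 70.2 and 81.8 with erlotinib and 69.7 and 69.2 with osimertinib, changes of -0.52 ± 0.09 (SE, adjusted p = 6.16e-05) and -0.65 ± 0.09 (SE, adjusted p = 2.91e-06). DKC1 had the largest falls of the group in PC9, 2.55-fold and 3.21-fold, and its treated libraries came down to the T0 range of H1650 or below it. NOP10 (ENSG00000182117, chr15:34341713-34343177), the smallest of the 4 proteins, had 56.4 and 58.6 CPM at T0, 32.9 and 34.4 with erlotinib and 37.2 and 36.3 with osimertinib in PC9, changes of -0.77 ± 0.08 (SE, adjusted p = 4.36e-09) and -0.65 ± 0.08 (SE, adjusted p = 1.27e-07). In H1650, NOP10 had 68.5 and 62.8 CPM at T0, 52.6 and 51.7 with erlotinib and 61.6 and 63.6 with osimertinib. Its H1650 libraries overlapped between T0 and osimertinib, and its log2 change there was -0.07 ± 0.08 (SE, adjusted p = 0.562), against -0.33 ± 0.08 (SE, adjusted p = 0.00168) with erlotinib. GAR1 was called lower in all 4 comparisons and NHP2, 27.4% of whose exon bases lie opposite exons of another gene, in 3.

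The nucleolar chaperones and scaffolds had the lowest medians of the 8 role groups in H1650, -0.77 and -0.85, and medians of -1.42 and -1.79 in PC9. All 7, NPM1, NPM3, NCL, NOLC1, TCOF1, DDX21 and LYAR, were called lower in all 4 comparisons. LYAR (ENSG00000145220, chr4:4267701-4290169) encodes a nucleolar zinc finger protein that acts in pre-rRNA processing and had 58.5 and 64.8 CPM at T0, 9.23 and 10.8 with erlotinib and 8.14 and 8.52 with osimertinib in PC9. Its H1650 libraries had 38.1 and 38.2 CPM at T0, 18.9 and 23.4 with erlotinib and 19.6 and 20.4 with osimertinib. LYAR fell 6.14-fold and 7.41-fold in PC9 (-2.62 ± 0.12 (SE, adjusted p = 2.30e-17) and -2.89 ± 0.12 (SE, adjusted p = 6.61e-18)) and 1.80-fold and 1.91-fold in H1650 (-0.85 ± 0.11 (SE, adjusted p = 4.36e-07) and -0.93 ± 0.11 (SE, adjusted p = 9.42e-08)). TCOF1 (ENSG00000070814, chr5:150357629-150400308) encodes treacle, which links RNA polymerase I transcription to processing and is mutated in Treacher Collins syndrome. It had 423 and 441 CPM at T0, 70.9 and 78.5 with erlotinib and 51.7 and 60.04 with osimertinib in PC9. H1650 libraries had 196 and 197 CPM at T0, 110.0 and 115 with erlotinib and 100.2 and 96.8 with osimertinib. The falls of TCOF1 were 5.78-fold and 7.74-fold in PC9 and 1.75-fold and 2.00-fold in H1650, with log2 changes of -2.53 ± 0.08 (SE, adjusted p = 1.43e-20), -2.95 ± 0.08 (SE, adjusted p = 1.09e-21), -0.80 ± 0.08 (SE, adjusted p = 2.75e-09) and -0.997 ± 0.08 (SE, adjusted p = 5.57e-11).

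NPM1 (ENSG00000181163, chr5:171387116-171411137), nucleophosmin, is an abundant histone and ribosomal protein chaperone and had the most reads of all members. PC9 libraries had 1989 and 2106 CPM at T0, 1066 and 1251 with erlotinib and 896 and 1003 with osimertinib. H1650 libraries had 1451 and 1593 CPM at T0, 814 and 913 with erlotinib and 879.8 and 949 with osimertinib. NPM1 fell 1.77-fold in PC9 and 1.76-fold in H1650 with erlotinib, changes of -0.82 ± 0.08 (SE, adjusted p = 9.64e-10) and -0.82 ± 0.08 (SE, adjusted p = 6.35e-09), and with osimertinib by -1.11 ± 0.08 (SE, adjusted p = 2.14e-12) and -0.73 ± 0.08 (SE, adjusted p = 4.30e-08) on the log2 scale. The gene table lists 46 pseudogenes named after NPM1, and reads that match them could be counted there or not at all.

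**Figure D2:**
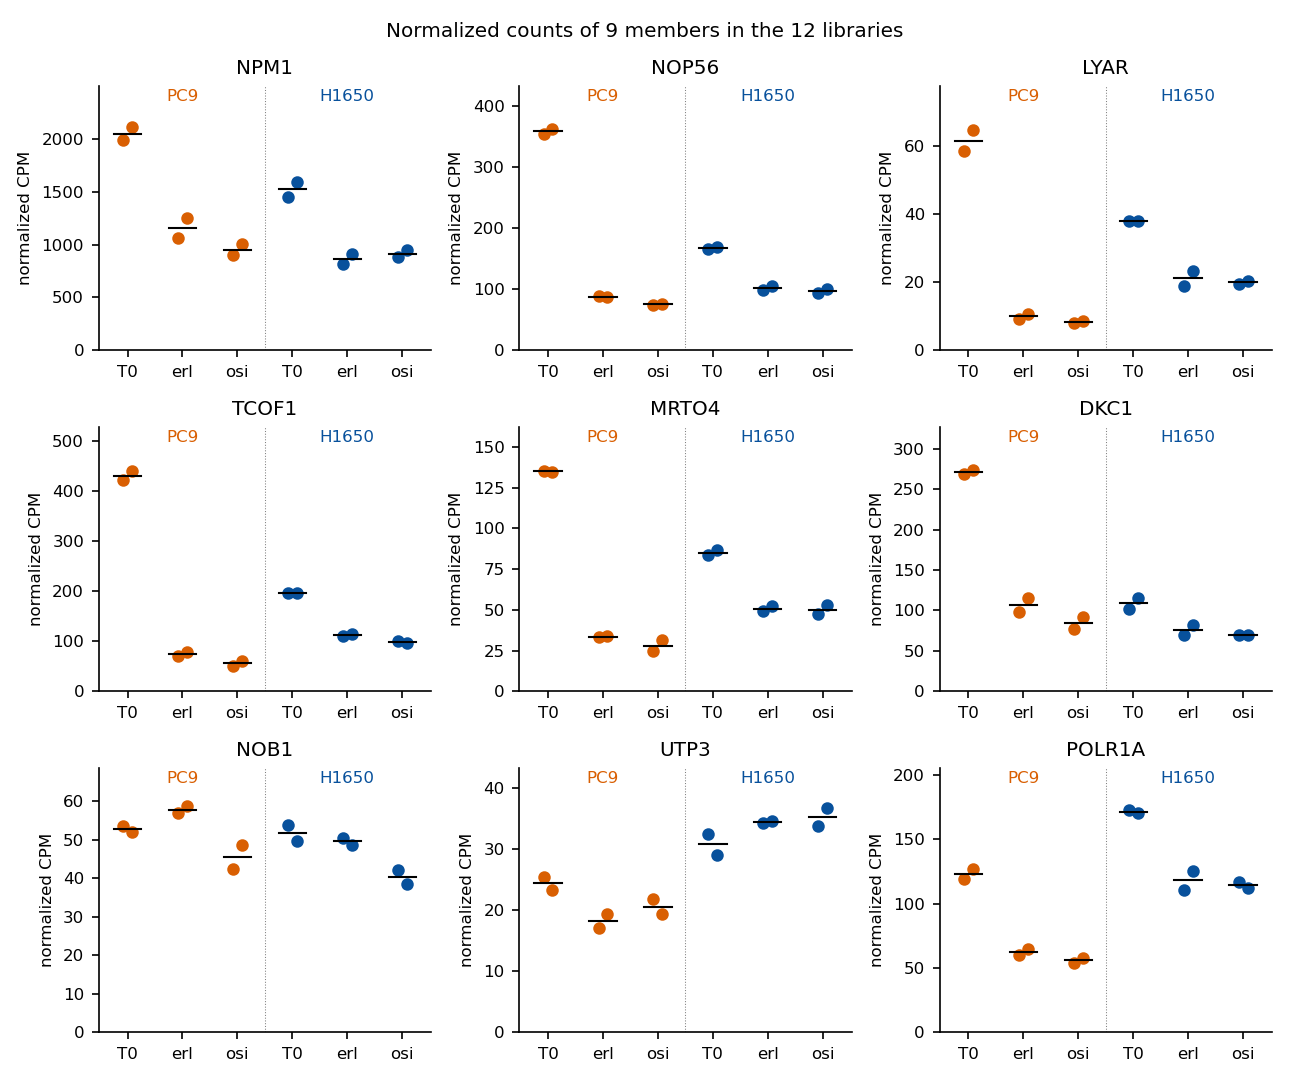
Normalized CPM (y axis, from 0) of 9 members in each of the 12 libraries. Points are libraries, orange for PC9 and blue for H1650, and black lines are group means of 2 libraries, with erl for erlotinib and osi for osimertinib. NPM1, NOP56, LYAR, TCOF1, MRTO4 and DKC1 are highest in PC9 at T0, and in NOB1 and UTP3 the treated libraries lie closer to T0 than in the other 7.

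Both early-binding complexes of the small subunit processome fell. All 6 UTP-A genes (UTP4, UTP15, WDR43, WDR75, HEATR1 and NOL11) were called lower in all 4 comparisons, and their medians were -1.18 and -1.22 in PC9, beside -0.42 and -0.51 in H1650 for erlotinib and osimertinib in turn. UTP4 (ENSG00000141076, chr16:69131291-69231130), also known as cirhin, had the highest mean CPM of the complex over the 12 libraries, though WDR43 was higher in PC9. UTP4 had 110.1 and 114 CPM at T0, 46.6 and 46.3 with erlotinib and 34.5 and 37.00 with osimertinib in PC9. In H1650 UTP4 had 127 and 133 CPM at T0, 90.2 and 100.2 with erlotinib and 90.5 and 91.6 with osimertinib. Its changes were -1.27 ± 0.08 (SE, adjusted p = 4.95e-14) and -1.65 ± 0.08 (SE, adjusted p = 2.78e-16) in PC9 and -0.45 ± 0.08 (SE, adjusted p = 2.75e-05) and -0.51 ± 0.08 (SE, adjusted p = 4.09e-06) in H1650, with no overlap between treated and T0 libraries. WDR43 (ENSG00000163811, chr2:28894643-28948222) fell most of the 6 and had 131 and 145 CPM at T0, 53.97 and 51.8 with erlotinib and 40.4 and 45.02 with osimertinib in PC9. Its reads in H1650 were 66.4 and 66.6 CPM at T0, 45.3 and 48.1 with erlotinib and 45.6 and 46.6 with osimertinib. That is -1.38 ± 0.08 (SE, adjusted p = 1.37e-14) and -1.69 ± 0.08 (SE, adjusted p = 2.45e-16) in PC9 and -0.51 ± 0.08 (SE, adjusted p = 1.64e-05) and -0.53 ± 0.08 (SE, adjusted p = 9.53e-06) in H1650. WDR75 (ENSG00000115368, chr2:189441433-189475565) had the smallest mean fall, though HEATR1 fell less with erlotinib in H1650. WDR75 had 41.3 and 45.9 CPM at T0, 29.2 and 30.2 with erlotinib and 27.9 and 25.6 with osimertinib in PC9 and 69.4 and 71.3 CPM at T0, 52.9 and 53.5 with erlotinib and 57.9 and 57.1 with osimertinib in H1650, changes of -0.55 ± 0.09 (SE, adjusted p = 3.14e-06), -0.70 ± 0.09 (SE, adjusted p = 8.80e-08), -0.40 ± 0.08 (SE, adjusted p = 2.83e-04) and -0.29 ± 0.08 (SE, adjusted p = 0.00595). WDR75 was higher in H1650 than in PC9 under every condition.

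The UTP-B genes (PWP2, UTP6, UTP18, WDR3 and WDR36) had medians of -0.95 and -1.17 in PC9, beside -0.45 and -0.37 in H1650, with 5 of 5 called lower in each comparison except osimertinib in H1650, where WDR36 was not. WDR3 (ENSG00000065183, chr1:117929720-117966542) had the highest mean CPM of the 5 over the 12 libraries, though WDR36 was higher in treated H1650. WDR3 also had the lowest mean change over the 4 comparisons with T0. It had 121 and 133 CPM at T0, 57.3 and 61.4 with erlotinib and 45.2 and 47.3 with osimertinib in PC9. In H1650 WDR3 had 62.3 and 63.05 CPM at T0, 42.6 and 45.1 with erlotinib and 39.8 and 43.7 with osimertinib. Its changes were -1.10 ± 0.08 (SE, adjusted p = 1.92e-12), -1.46 ± 0.08 (SE, adjusted p = 6.40e-15), -0.51 ± 0.08 (SE, adjusted p = 1.62e-05) and -0.58 ± 0.08 (SE, adjusted p = 2.54e-06), in the same order. UTP6 (ENSG00000108651, chr17:31860899-31901765) changed least by the mean of the 4 comparisons and in PC9, while WDR36 changed least in H1650. UTP6 had 68.1 and 75.2 CPM at T0, 42.2 and 46.5 with erlotinib and 45.5 and 46.2 with osimertinib in PC9 and 54.5 and 53.6 CPM at T0, 41.3 and 42.8 with erlotinib and 39.3 and 44.5 with osimertinib in H1650. The treated libraries of UTP6 lay below those of T0, with changes of -0.69 ± 0.09 (SE, adjusted p = 7.19e-08), -0.64 ± 0.09 (SE, adjusted p = 2.68e-07), -0.36 ± 0.09 (SE, adjusted p = 0.00164) and -0.37 ± 0.09 (SE, adjusted p = 0.00148).

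The other small subunit factors ranged from PNO1, with falls in every comparison with T0, to NOB1 and UTP3, which were not called in all of them. Of the 12 (NOP14, NOL6, RRP12, UTP3, UTP14A, UTP20, WDR46, DDX10, BYSL, TSR1, PNO1 and NOB1), 11 were called lower with each drug in PC9 and 9 with each drug in H1650. PNO1 (ENSG00000115946, chr2:68157844-68176238), which helps to cleave the 3′ end of 18S rRNA together with NOB1, fell most, with 77.6 and 77.5 CPM at T0, 28.9 and 27.5 with erlotinib and 21.5 and 23.9 with osimertinib in PC9 and 48.8 and 50.01 CPM at T0, 27.4 and 29.4 with erlotinib and 32.1 and 27.8 with osimertinib in H1650. Its log2 changes were -1.46 ± 0.09 (SE, adjusted p = 6.37e-14), -1.77 ± 0.09 (SE, adjusted p = 1.72e-15), -0.80 ± 0.09 (SE, adjusted p = 9.64e-08) and -0.72 ± 0.09 (SE, adjusted p = 4.34e-07). The endonuclease itself, NOB1 (ENSG00000141101, chr16:69741867-69754940), moved differently: it had 53.5 and 51.9 CPM at T0, 56.7 and 58.6 with erlotinib and 42.4 and 48.5 with osimertinib in PC9, with the erlotinib libraries above those of T0. Its H1650 libraries had 53.7 and 49.6 CPM at T0, 50.4 and 48.7 with erlotinib and 42.1 and 38.6 with osimertinib. NOB1 was called lower with osimertinib (-0.22 ± 0.09 (SE, adjusted p = 0.0351) in PC9 and -0.36 ± 0.09 (SE, adjusted p = 0.00189) in H1650) and not called with erlotinib (0.13 ± 0.09 (SE, adjusted p = 0.197) and -0.06 ± 0.09 (SE, adjusted p = 0.643)), and 20.2% of its exon bases lie opposite exons of another gene.

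TSR1 (ENSG00000167721, chr17:2322503-2337507), an assembly factor of the late small subunit, had the most reads of these 12, 155 and 172 CPM at T0, 74.8 and 79.4 with erlotinib and 66.4 and 65.7 with osimertinib in PC9 and 98.4 and 104 CPM at T0, 71.00 and 83.6 with erlotinib and 80.3 and 84.8 with osimertinib in H1650. Its changes were -1.09 ± 0.08 (SE, adjusted p = 3.90e-12), -1.31 ± 0.08 (SE, adjusted p = 9.39e-14), -0.39 ± 0.08 (SE, adjusted p = 4.45e-04) and -0.30 ± 0.08 (SE, adjusted p = 0.00573). UTP3 (ENSG00000132467, chr4:70688479-70690551) had 25.5 and 23.3 CPM at T0, 17.1 and 19.3 with erlotinib and 21.9 and 19.3 with osimertinib in PC9, a change of -0.42 ± 0.11 (SE, adjusted p = 0.00139) with erlotinib and -0.24 ± 0.11 (SE, adjusted p = 0.0567) with osimertinib. In H1650 it had 32.5 and 29.1 CPM at T0, 34.2 and 34.7 with erlotinib and 33.8 and 36.7 with osimertinib, and the treated libraries lay above those of T0 without passing the test (0.16 ± 0.10 (SE, adjusted p = 0.222) and 0.20 ± 0.10 (SE, adjusted p = 0.137)). WDR46 had changes of -0.38 ± 0.09 (SE, adjusted p = 3.69e-04), -0.36 ± 0.09 (SE, adjusted p = 6.94e-04), -0.36 ± 0.09 (SE, adjusted p = 0.00173) and -0.18 ± 0.09 (SE, adjusted p = 0.117).

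Of the 17 large subunit factors, 16 were called lower with each drug in PC9 and 13 with each drug in H1650, and their medians were -1.05 and -1.32 in PC9, beside -0.48 and -0.45 in H1650. The group holds RRP1, RRP1B, RRS1, BRIX1, PPAN, NIP7, DDX18, DDX56, GNL3, MRTO4, EBNA1BP2, FTSJ3, GRWD1, WDR12, WDR74, NOP2 and NOP16. MRTO4 (ENSG00000053372, chr1:19251539-19260128), a relative of the stalk protein P0 that holds its place in the pre-60S particle, fell most. It had 136 and 134 CPM at T0, 33.1 and 34.04 with erlotinib and 24.6 and 31.3 with osimertinib in PC9, a 4.02-fold and 4.85-fold fall. In H1650 it had 83.7 and 86.7 CPM at T0, 49.1 and 52.2 with erlotinib and 47.3 and 52.9 with osimertinib, a 1.68-fold and 1.70-fold fall. The log2 changes were -2.01 ± 0.09 (SE, adjusted p = 5.95e-17), -2.28 ± 0.10 (SE, adjusted p = 6.46e-18), -0.75 ± 0.09 (SE, adjusted p = 1.50e-07) and -0.77 ± 0.09 (SE, adjusted p = 1.03e-07). DDX18 (ENSG00000088205, chr2:117814650-117832379), a DEAD-box RNA helicase, had the highest mean CPM of the group over the 12 libraries, just above DDX56. EBNA1BP2 was higher than DDX18 in PC9 at T0, and DDX56 was higher in H1650 under every condition. DDX18 had 239.8 and 258 CPM at T0, 121 and 135 with erlotinib and 111 and 121 with osimertinib in PC9. In H1650 DDX18 had 144 and 154 CPM at T0, 95.4 and 110.0 with erlotinib and 104 and 99.1 with osimertinib. Its treated libraries lay below T0 in both lines, with changes of -0.95 ± 0.08 (SE, adjusted p = 3.77e-11), -1.10 ± 0.08 (SE, adjusted p = 2.18e-12), -0.53 ± 0.08 (SE, adjusted p = 7.18e-06) and -0.55 ± 0.08 (SE, adjusted p = 4.26e-06).

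NOP2 (ENSG00000111641, chr12:6556863-6568691), a methyltransferase of 28S rRNA, had between 11 and 36 reads per library, where every other member had at least 81. It had 1.31 and 1.38 CPM at T0, 1.03 and 0.937 with erlotinib and 1.66 and 0.617 with osimertinib in PC9 and 0.793 and 0.965 CPM at T0, 1.03 and 0.791 with erlotinib and 1.00 and 1.16 with osimertinib in H1650, and the pair of osimertinib libraries of PC9 differed by 1.43 on the log2 scale. Its estimates, -0.45 ± 0.43 (SE, adjusted p = 0.372), -0.21 ± 0.43 (SE, adjusted p = 0.709), 0.04 ± 0.46 (SE, adjusted p = 0.973) and 0.29 ± 0.44 (SE, adjusted p = 0.666), show no change that could be detected at this depth. In GENCODE 29, 54.4% of the exon bases of NOP2 are also exons of another gene on the same strand, as are 59.8% of those of PPAN, and the part of such shared reads in their counts was not tested. Of the 58 members, 42 share under 10% of their exon bases with any gene. Of these 42, 42 were called lower with erlotinib and 41 with osimertinib in PC9, and 38 and 35 in H1650.

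The promoters of many members hold the palindrome CACGTG, the E-box that MYC binds with MAX. RefSeq start sites (GRCh38.p14) gave windows of 300 bases, 250 before and 50 after the start, for 51 of the 58 members, and none for NOP58, NOLC1, RRP12, DDX18, RRS1, RRP1B and TCOF1. CACGTG was found in 21 of the 51 genes (41.2%), against 8.77% of all genes with a window and 12.1% of the tested genes with one. By window, 36.7% of 60 member windows held it, against 7.26% of all windows of the same length and 9.03% of those of tested genes. The ETS-type motif CCGGAAG, searched on both strands, was in 23 of the 51 genes (45.1%), 12.2% of all genes and 20.3% of those tested. The E-boxes whose first base lies before the start site and that have 17 bases of the window on each side are printed on the gene's strand with CACGTG in capitals, to show what flanks them. Many members, such as MRTO4, WDR43, FBL and PWP2, have theirs after the start, and those are not printed. Those of EBNA1BP2 and UTP14A before the start lie too near the far end of the window and are not printed.
LYAR: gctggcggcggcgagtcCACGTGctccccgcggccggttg
DDX21: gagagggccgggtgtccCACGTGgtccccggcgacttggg
UTP20: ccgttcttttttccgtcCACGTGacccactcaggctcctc
UTP4: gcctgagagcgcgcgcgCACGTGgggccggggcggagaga
UTP18: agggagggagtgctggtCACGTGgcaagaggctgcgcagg
NOP10, proximal: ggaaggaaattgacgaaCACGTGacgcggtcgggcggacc
NOP10, distal: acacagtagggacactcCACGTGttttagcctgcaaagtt
RRP9: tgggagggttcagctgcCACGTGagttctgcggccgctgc

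The first base of the E-box lies 64 bases before the start in LYAR (chr4:4290063-4290102, minus strand), 31 in DDX21 (chr10:68956599-68956638, plus), 10 in UTP20 (chr12:101280078-101280117, plus), 16 in UTP4 (chr16:69132616-69132655, plus) and 89 in UTP18 (chr17:51260440-51260479, plus). In RRP9 it lies 5 bases before the start (chr3:51941887-51941926, minus). NOP10 has a pair of them, 11 and 170 bases before the start (chr15:34343125-34343164 and chr15:34343284-34343323, minus). UTP18 has a further E-box that begins at base 5 of the transcript, and EBNA1BP2 has E-boxes on both sides of the start. Of the 21 members with an E-box, 19 have an E-box whose first base lies within 50 bases of a start. Among members with a window, those with CACGTG had a median log2 change in PC9 of -1.10 with erlotinib and -1.20 with osimertinib, and those without it -0.98 and -1.12. In H1650 the medians were -0.52 and -0.46 with the motif and -0.42 and -0.44 without. Members with CCGGAAG had medians of -1.05 and -1.25 in PC9, and those without it -1.02 and -1.16. In H1650 these were -0.45 and -0.39 with that motif and -0.51 and -0.52 without. The difference between members with and without either motif was not tested, and the 7 members with no window are in neither set.

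Most other genes of the pathway, listed by role, were called lower in PC9. Of 28 further small subunit genes tested, 25 were called lower with erlotinib and 26 with osimertinib in PC9, and 20 and 16 in H1650, with medians of -0.93 and -0.94 in PC9, beside -0.40 and -0.31 in H1650. The extremes with erlotinib in PC9 were the kinase RIOK1 (-1.53 ± 0.12 (SE, adjusted p = 1.13e-11)) and NOP9 (-0.05 ± 0.11 (SE, adjusted p = 0.749)). Of 35 further large subunit genes, 31 were called lower with each drug in PC9, and 27 and 20 in H1650, with medians of -0.82 and -0.90 in PC9, beside -0.34 and -0.30 in H1650. URB2 (-1.92 ± 0.12 (SE, adjusted p = 4.76e-14)) and RSL24D1 (0.82 ± 0.08 (SE, adjusted p = 5.67e-10)), a homologue of ribosomal protein L24 in the pre-60S particle, were at the ends of that list, and RSL24D1 was the gene called higher. Of 11 further genes of the polymerase I machinery, 8 were called lower with each drug in PC9 and 5 and 4 in H1650, between TAF1A (-1.57 ± 0.15 (SE, adjusted p = 2.28e-10)), a subunit of the promoter selectivity factor, and POLR1D (0.33 ± 0.08 (SE, adjusted p = 7.76e-04)), which is shared with RNA polymerase III.

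The ribosomal proteins themselves changed less, and not in 1 direction. The 81 cytosolic ribosomal protein genes tested had medians of 0.14 and -0.19 in PC9, beside -0.26 and -0.29 in H1650, and with erlotinib in PC9 12 were called lower and 35 higher. With osimertinib in PC9, 43 were called lower and 4 higher, and in H1650 50 were lower and 1 higher with erlotinib and 56 and 0 with osimertinib. The 77 mitochondrial ribosomal protein genes had medians of -0.47 and -0.64 in PC9, beside -0.20 and -0.20 in H1650, with 58 and 59 called lower in PC9 and 30 and 27 in H1650. Many cytosolic ribosomal protein genes have processed pseudogenes, so that their reads may be split.

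**Figure D3:**
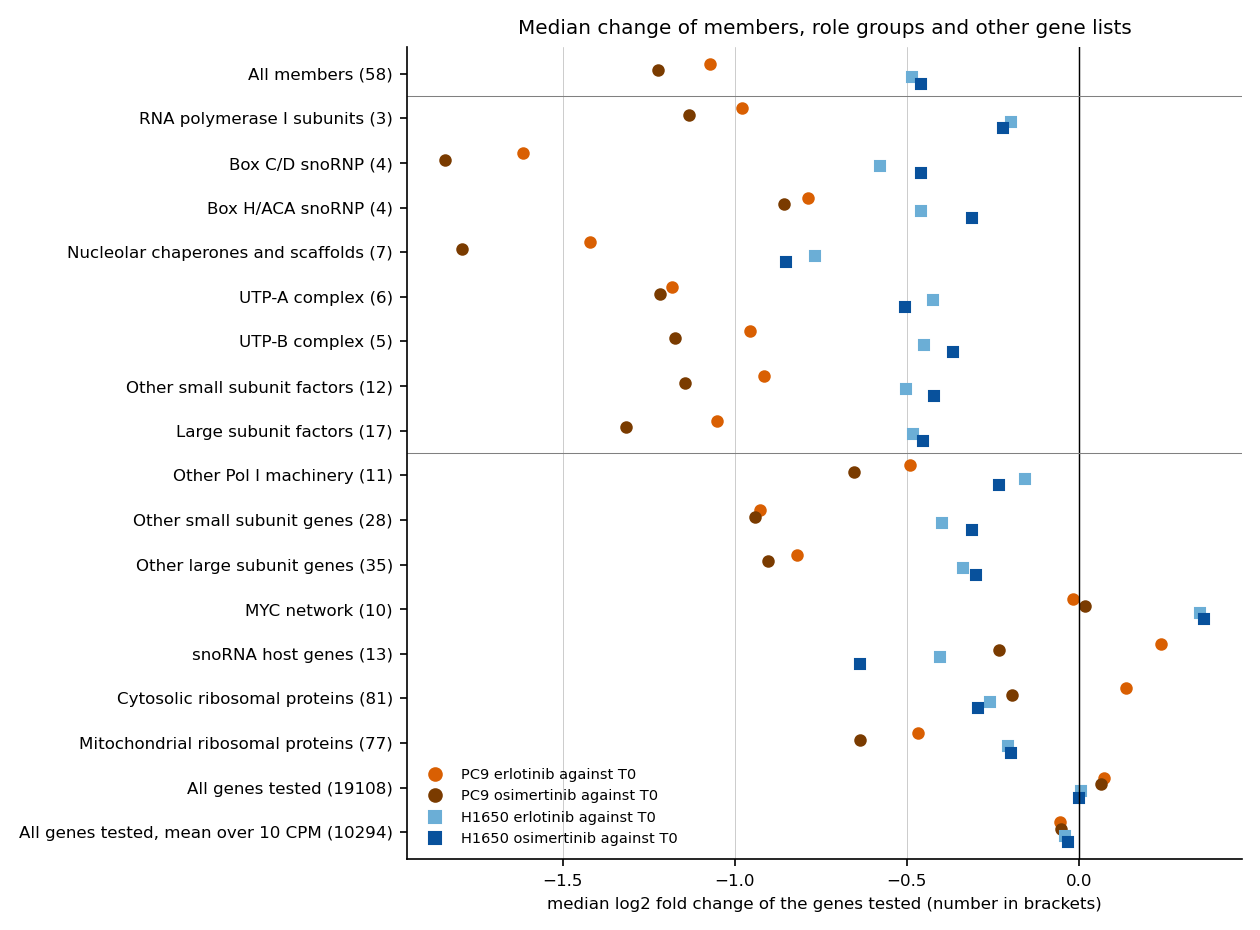
Median log2 fold change (x axis) of all members, the 8 role groups, 7 other gene lists and the genes tested (y axis, number of genes tested in brackets). Circles are PC9 and squares H1650. The role groups lie left of the genes tested in all 4 comparisons, and the cytosolic ribosomal proteins run from -0.29 with osimertinib in H1650 to 0.14 with erlotinib in PC9.

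Whether the fall differed between the lines was tested directly by subtracting the PC9 change from the H1650 change in the same fit. With erlotinib, 44 of 58 members were called with a less negative change in H1650 and 0 with a more negative one, and the median difference was 0.57 on the log2 scale. Over all genes tested, 21.1% were called in that direction and 19.8% in the other. Of the 10294 genes with a mean over 10 CPM, 3208 and 2690 were. With osimertinib, 52 members were called with the less negative change in H1650, 0 with the more negative one, and the median difference was 0.81, with 21.5% and 20.5% of all genes called in each direction. Of the genes with a mean over 10 CPM, 3350 and 2717 were. The size of the change was smaller in H1650 for 58 of 58 members with erlotinib and 56 with osimertinib, where the same held for 13609 and 13853 of the 19108 genes. The 4 comparisons with T0 share their T0 libraries by line, but no library of one line enters the change of the other. Across the 58 members, the change in H1650 rose with that in PC9, with a Pearson correlation of 0.674 for erlotinib and 0.758 for osimertinib (0.311 and 0.305 over all genes tested), given as a description since genes are not independent replicates.

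LYAR, TCOF1 and NOP58 differed most between the lines. LYAR fell less in H1650 by 1.77 ± 0.16 (SE, adjusted p = 3.22e-10) with erlotinib and 1.96 ± 0.16 (SE, adjusted p = 7.68e-11) with osimertinib. For TCOF1 the differences were 1.73 ± 0.11 (SE, adjusted p = 2.58e-13) and 1.96 ± 0.11 (SE, adjusted p = 2.43e-14). NOP58 (ENSG00000055044, chr2:202265716-202303666) had 99.9 and 106 CPM at T0, 28.6 and 31.3 with erlotinib and 30.6 and 28.1 with osimertinib in PC9 and 91.7 and 89.3 CPM at T0, 66.7 and 68.6 with erlotinib and 74.3 and 77.6 with osimertinib in H1650. Both lines thus started near the same level of NOP58, and every treated PC9 library lay far below every treated H1650 library. The differences for NOP58 were 1.36 ± 0.11 (SE, adjusted p = 8.46e-11) and 1.56 ± 0.11 (SE, adjusted p = 5.67e-12). At the other end, NOB1 (-0.19 ± 0.12 (SE, adjusted p = 0.236) and -0.14 ± 0.12 (SE, adjusted p = 0.401)), WDR46 (0.03 ± 0.12 (SE, adjusted p = 0.923) and 0.19 ± 0.12 (SE, adjusted p = 0.241)) and FTSJ3 (0.08 ± 0.12 (SE, adjusted p = 0.664) and 0.28 ± 0.12 (SE, adjusted p = 0.0562)) were not called with either drug. WDR46 had 64.4 and 63.03 CPM at T0, 49.4 and 48.4 with erlotinib and 46.8 and 52.3 with osimertinib in PC9 and 59.9 and 56.8 CPM at T0, 42.00 and 48.9 with erlotinib and 50.5 and 52.7 with osimertinib in H1650. FTSJ3 (ENSG00000108592, chr17:63819433-63830012), an RNA methyltransferase of the pre-60S particle, had 91.9 and 102 CPM at T0, 60.3 and 62.4 with erlotinib and 60.5 and 68.3 with osimertinib in PC9 and 89.6 and 99.7 CPM at T0, 62.1 and 64.4 with erlotinib and 74.8 and 78.03 with osimertinib in H1650, so that both lines covered nearly the same range.

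**Figure D4:**
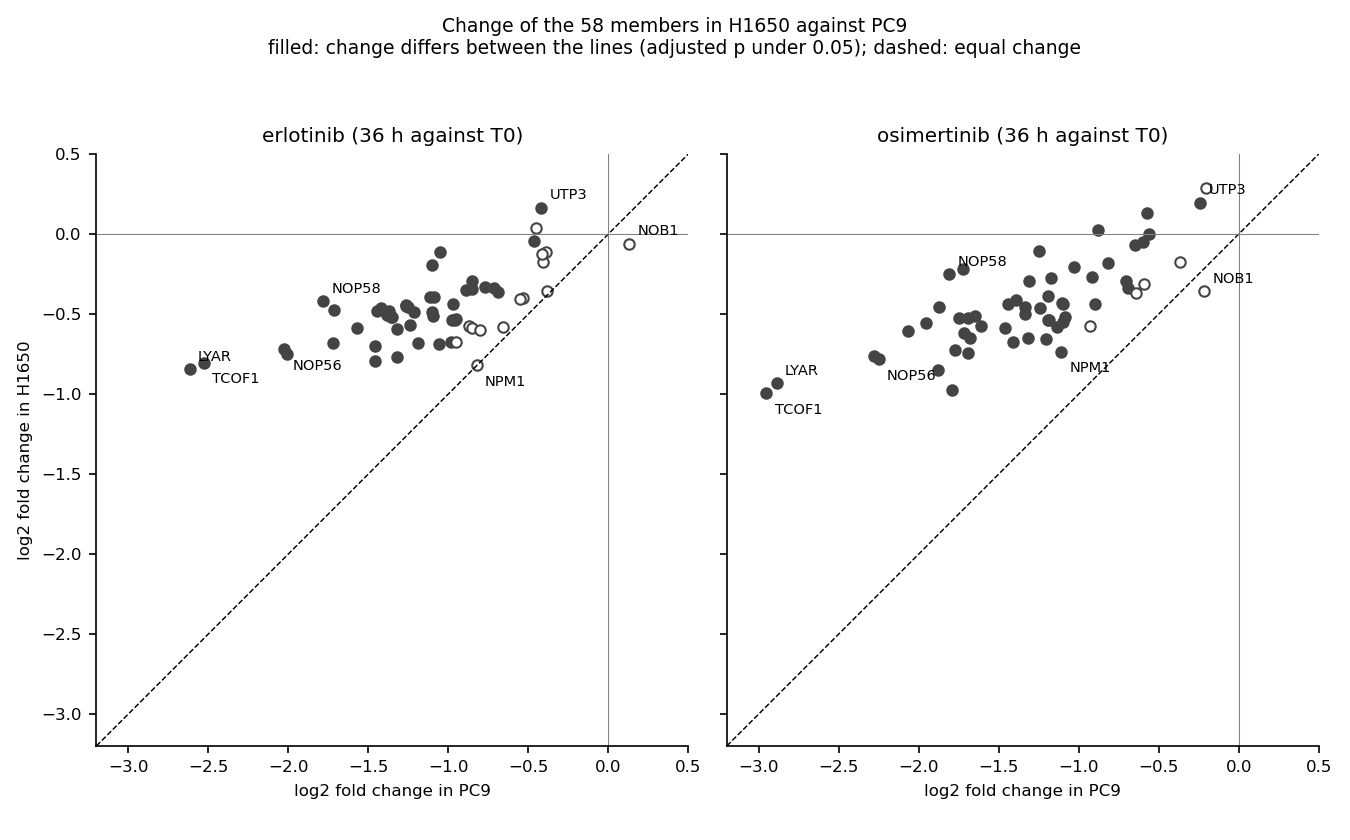
Log2 fold change from T0 of each member in PC9 (x axis) and H1650 (y axis) for erlotinib (left) and osimertinib (right), on equal scales. The dashed line marks equal change and filled points are members whose change differed between the lines at an adjusted p under 0.05, 44 with erlotinib and 52 with osimertinib. Points spread along PC9 down to nearly -3 and stay within 1 of 0 in H1650.

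Osimertinib at 0.1 µM and erlotinib at 10 µM were compared at the same time in each line, at doses that differ. In PC9, 22 members were lower with osimertinib, 0 higher, and the median difference was -0.19. Over all genes tested, 6.41% were called lower and 10.1% higher. The 2 lowest were POLR1B (-0.62 ± 0.09 (SE, adjusted p = 1.02e-05)) and RRS1 (-0.59 ± 0.13 (SE, adjusted p = 0.00190)), a regulator of large subunit assembly, which had 43.00 and 40.6 CPM at T0, 17.2 and 15.1 with erlotinib and 9.76 and 11.9 with osimertinib in PC9. The 2 highest, NOP2 (0.25 ± 0.44 (SE, adjusted p = 0.786)) and UTP3 (0.18 ± 0.11 (SE, adjusted p = 0.313)), were not called. The count rested in part on single libraries, and was 7 without PC9 osimertinib replicate 1 and 12 without PC9 erlotinib replicate 2.

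In H1650, 2 members were called lower with osimertinib than with erlotinib and 2 higher, with a median difference of 0.028, where 3.73% of all genes were called lower and 5.02% higher. The lower pair was DDX21 (-0.39 ± 0.08 (SE, adjusted p = 0.00280)), a helicase that senses polymerase I transcription, and NOB1 (-0.30 ± 0.09 (SE, adjusted p = 0.0325)), and the higher pair NOP10 (0.26 ± 0.08 (SE, adjusted p = 0.0392)) and FTSJ3 (0.27 ± 0.08 (SE, adjusted p = 0.0401)). PWP2, which had the highest estimate, was not called (0.29 ± 0.13 (SE, adjusted p = 0.200)), and had 15.2 and 15.97 CPM with erlotinib and 17.1 and 20.8 with osimertinib. DDX21 had 520.1 and 570.0 CPM at T0, 206 and 229.8 with erlotinib and 155 and 160.0 with osimertinib in PC9 and 301 and 315 CPM at T0, 186 and 223 with erlotinib and 148 and 165 with osimertinib in H1650. Without H1650 osimertinib replicate 1, or without H1650 erlotinib replicate 2, 0 members were called lower, and 0 were called higher when any 1 of the 4 treated H1650 libraries was left out. For most members no difference between the drugs was called in H1650, which does not show that they act alike: the 95% interval was -0.08 to 0.25 for NPM1 and -0.21 to 0.08 for NOP56.

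**Figure D5:**
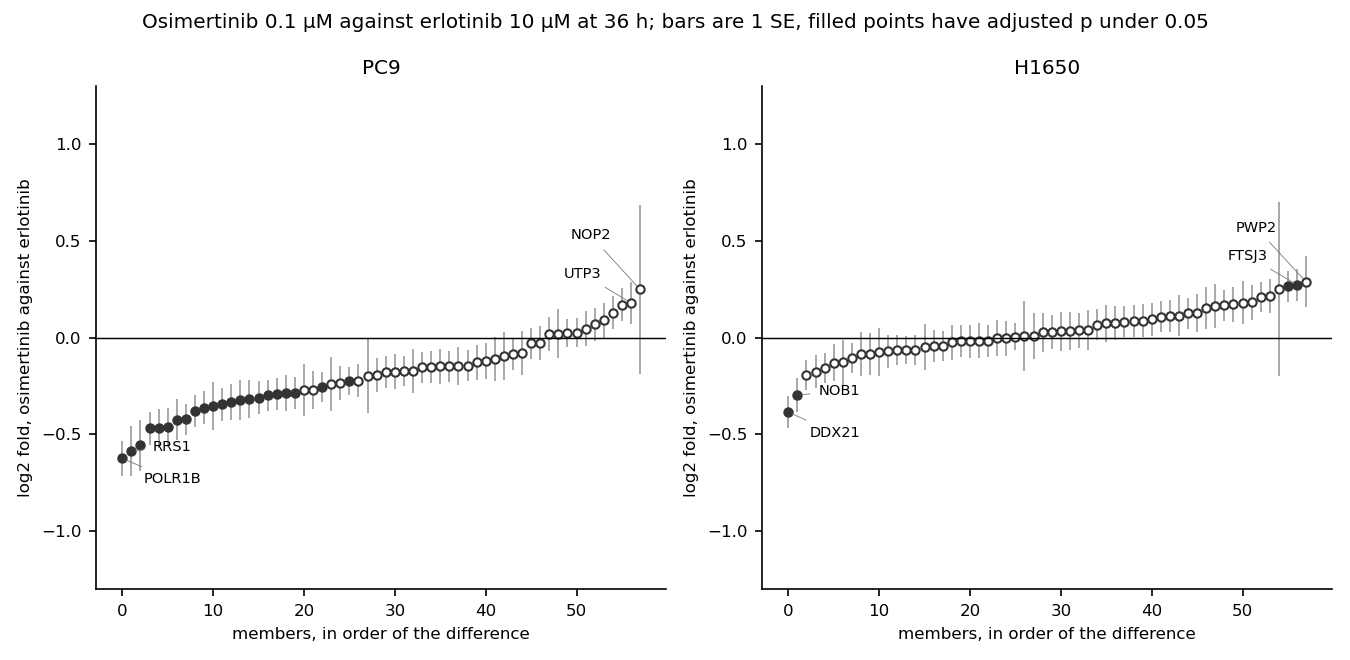
Log2 fold difference between osimertinib and erlotinib (y axis) of the 58 members in order of size (x axis) in PC9 (left) and H1650 (right). Bars are 1 SE, derived from the test statistic, and filled points passed an adjusted p of 0.05. In PC9 the 22 filled points all lie below 0, and in H1650 2 lie below and 2 above.

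The lines differed before treatment. At T0, 39 members were lower in H1650 than in PC9 and 9 were higher, and 33.8% of all genes tested were called lower and 35.8% higher. The median difference of the members was -0.44. Per kilobase of gene length in the table, the order of levels at T0 was led in PC9 by NPM1 (535 CPM per kb), NCL (212) and NOP10 (113), and in H1650 by the same 3, at 398, 145 and 129. NOP2 was lowest in both, at 0.287 and 0.187.

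The 3 members lowest in H1650 relative to PC9 were UTP14A (-1.77 ± 0.09 (SE, adjusted p = 6.90e-16)), WDR74 (-1.46 ± 0.10 (SE, adjusted p = 4.11e-13)) and DKC1 (-1.32 ± 0.09 (SE, adjusted p = 4.77e-13)). UTP14A (ENSG00000156697, chrX:129906121-129929761), a small subunit factor encoded on the X chromosome as DKC1 is, had 88.8 and 90.3 CPM at T0, 64.9 and 70.2 with erlotinib and 55.95 and 62.3 with osimertinib in PC9. In H1650 UTP14A had 24.9 and 27.6 CPM at T0, 21.5 and 24.9 with erlotinib and 25.2 and 25.6 with osimertinib, and no treated PC9 library came down to the H1650 level. WDR74 (ENSG00000133316, chr11:62832342-62841809) had 50.97 and 56.5 CPM at T0, 41.6 and 39.00 with erlotinib and 29.8 and 28.6 with osimertinib in PC9 and 19.6 and 19.6 CPM at T0, 19.3 and 16.7 with erlotinib and 21.05 and 18.8 with osimertinib in H1650, so that its level in H1650 was below that of PC9 under every condition. The 3 highest were WDR75 (0.69 ± 0.08 (SE, adjusted p = 3.29e-08)), NPM3 (0.51 ± 0.11 (SE, adjusted p = 9.78e-05)) and POLR1A (0.48 ± 0.08 (SE, adjusted p = 3.56e-06)). NPM3 (ENSG00000107833, chr10:101781325-101783413), a relative of nucleophosmin, had 26.01 and 26.8 CPM at T0, 10.3 and 10.9 with erlotinib and 6.43 and 8.02 with osimertinib in PC9 and 37.5 and 37.8 CPM at T0, 21.98 and 22.3 with erlotinib and 21.9 and 19.9 with osimertinib in H1650. The other members called higher in H1650 were NOP10, GAR1, UTP4, UTP3, WDR12 and NIP7, by at most 0.33 on the log2 scale. The count of 9 was 4 without PC9 T0 replicate 1, and 5 without PC9 T0 replicate 2 or without H1650 T0 replicate 1.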

How the data were processed

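PC9 and H1650 libraries of polyA RNA were grouped by their deposited titles. The authors ran the DolphinNext pipeline and deposited raw counts, the whole number of reads that featureCounts gave each gene, without normalization. The submitters' processing notes name GRCh38 and DESeq2. The aligner, the annotation and the strandedness are not given in the sources used here, so reads of overlapping genes may be lost or, without strand, taken from the opposite one.

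Counts were fitted in R 4.3.3 with edgeR 4.0.16. The filter by group kept 19108 genes, TMM factors lay between 0.941 and 1.08, and all 12 libraries entered 1 quasi-likelihood fit with a term per group, which left 6 residual degrees of freedom beside 20.7 prior ones. A Benjamini-Hochberg adjusted p under 0.05 over all tested genes made a call, and all tests were two-sided. Errors are an SE of the log2 fold change, derived as its size divided by the square root of the quasi-likelihood F statistic. The fitted values use a prior count of 0.125. The members, the lists and the tests were chosen with earlier results of these data known. Role groups and other lists were written from general knowledge, and POLR1F and POLR1H were matched by their older symbols TWISTNB and ZNRD1, while POLR1G, PES1 and BOP1 were not analysed here. One marker gene of other cell types is not reported here.

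Full values are given, within each role group, for the member with the highest mean CPM over the 12 libraries and those with the lowest and the highest mean change with drug. They are also given for the 3 lowest and 3 highest differences between the lines and at T0, and for the 2 lowest and 2 highest between the drugs in each line. Genes outside the members are those at either end of their list with erlotinib in PC9. MYC was added after its values were seen. Gene positions and overlaps come from GENCODE 29, and promoter windows from RefSeq. The procedure was tested on simulated counts. Alternatives were DESeq2 1.42.0, RLE, upper quartile and library totals alone, 2 other filters, a threshold of 0.01, 1 fit per line, the replicate number as a block, and leaving out each library. Same-numbered replicates deviated together in 13 of 15 pairs of groups (correlation over 0.1, from 0.003 to 0.470), but the labels give no shared batch, so the numbers were not used to pair samples. Replicates of a group differed by more than sampling noise, with chi-square per degree of freedom from 4.04 to 7.20.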

Additional observations from a re-analysis of the deposited data

Results flagged for a closer look

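The change with drug differed between the lines by a direct test of the difference, the change in H1650 minus that in PC9. It was called for 44 members with erlotinib and 52 with osimertinib, in each case with the less negative change in H1650. The 3 members with the largest mean difference were called with both drugs. LYAR differed by 1.77 with erlotinib and 1.96 with osimertinib on the log2 scale, TCOF1 by 1.73 and 1.96, and NOP58 by 1.36 and 1.56. Groups of 2 libraries are too small to test for outlying samples.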

How the results depend on the processing

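With 2 libraries per group, SEs rest on a spread shared over all genes, and members with few reads, NOP2 above all, could not be judged. Counts of members called lower in the 4 comparisons with T0, and called in the 2 comparisons of the lines, stayed within 1.5 times their values under every alternative run, and the direction of their medians held. Scaling by library totals alone moved all genes by 0.1252 on the log2 scale for erlotinib in H1650 and by less than 0.1 elsewhere. The spread against which medians were judged to have moved is the pooled within-group SD of the members' median log2 CPM, a definition chosen after the data were seen. Where a value changed, the cause was not tested.

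Upper quartile scaling gave 1 member called higher with erlotinib in PC9, and library totals gave 1 with erlotinib in PC9 and 1 with each drug in H1650. Medians with erlotinib in PC9 were -0.98 by upper quartile, -0.98 by library totals and -1.13 without the filter, and -1.13 to -1.01 when 1 library was left out. With osimertinib in PC9 they were -1.15 by upper quartile, -1.31 without the filter and -1.28 with 1 fit per line. Library totals gave -0.36 and -0.39 for erlotinib and osimertinib in H1650, and upper quartile a median difference between the lines of 0.49 with erlotinib.

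Between the drugs in PC9, members called lower numbered 12 at an adjusted p under 0.01 and 7 to 22 when 1 library was left out, with medians of -0.24 to -0.15. In H1650, 1 was called lower with DESeq2, without the filter and at 0.01, and 0 to 2 with 1 library left out. There 0 were called higher by library totals and at 0.01, 1 without the filter, 4 with the replicate block, and 0 to 2 with 1 library left out, while the median was -0.0257 by library totals and -0.011 to 0.076 with 1 library left out. At T0, members called higher in H1650 numbered 5 without the filter, 4 at 0.01 and 4 to 9 with 1 library left out, and the median was -0.39 by library totals and -0.50 without the filter. The replicate block moved no other count of called members by over 1.5 times.

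For single named members, 3274 values under the alternatives kept their direction and their side of the threshold, 66 kept their direction and lost the call (most often NOB1 with osimertinib in PC9 and the erlotinib differences of POLR1C and UTP6 between the lines), 28 gained one and 20 changed sign. None of the values that changed sign was called in either setting. By library totals, POLR1C and NOB1 had 0.0795 and 0.0667 with erlotinib in H1650, and NOP10 0.00476 with osimertinib. By upper quartile, the erlotinib differences between the lines were -0.0764 for NPM1, -0.0561 for WDR46 and -0.00529 for FTSJ3, and under a minimum of 10 counts in each library -0.0244 for NPM1 and -0.00389 for WDR46. With 1 library left out, NOP2 ran from -1.12 to 0.30 with osimertinib in PC9, from -0.15 to 0.22 with erlotinib in H1650, from -0.67 to 0.76 between the drugs in PC9, and from -0.011 to 1.41 between the lines with osimertinib. POLR1C ran from -0.11 to 0.018 with erlotinib in H1650, and the erlotinib differences between the lines from -0.11 to 0.13 for NPM1 and -0.078 to 0.15 for WDR46.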

Other observations

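Among the members, 10 carry small nucleolar RNA genes within their introns or exons in GENCODE 29, such as NOP56, NOP58, GNL3, NCL and WDR43, which is 17.2% of the 58, against 1.46% of the tested genes that could be matched. The 10 hosts had medians of -1.30 with erlotinib and -1.47 with osimertinib in PC9, beside -0.44 and -0.40 in H1650, and the other 48 members had -0.98 and -1.19 in PC9, beside -0.49 and -0.46 in H1650. The libraries were made from polyA RNA, and the snoRNAs themselves were not analysed here.

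Of 13 noncoding or small host genes of snoRNAs, 5 were called lower and 6 higher with erlotinib in PC9, 6 and 1 with osimertinib in PC9, 9 and 0 with erlotinib in H1650 and 12 and 0 with osimertinib in H1650. Over all genes tested, the shares called lower and higher were 29.1% and 32.7%, 28.7% and 32.7%, 18.5% and 18.0%, and 17.9% and 17.8%, in the same order. With erlotinib in PC9 they ran from SNHG15 (-1.46 ± 0.11 (SE, adjusted p = 2.87e-12)) to SNHG7 (1.19 ± 0.08 (SE, adjusted p = 2.77e-13)). Translation ends early in many of these transcripts, and their level is known to depend on nonsense-mediated decay.

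The 10 genes of the MYC network had medians of -0.02 and 0.02 in PC9, beside 0.35 and 0.36 in H1650. With erlotinib in PC9, 1 of them was called lower and 3 higher, beside 29.1% and 32.7% of all genes tested. At the ends with erlotinib in PC9 were MXD3 (-0.62 ± 0.14 (SE, adjusted p = 4.67e-04)) and MXD4 (2.67 ± 0.10 (SE, adjusted p = 1.51e-18)), both of which encode MAX partners that repress E-box genes. MYC itself, named after its values were seen, had 122 and 118 CPM at T0, 118 and 118 with erlotinib and 80.4 and 85.5 with osimertinib in PC9. In H1650 it had 70.1 and 60.9, 49.3 and 54.1 and 52.98 and 53.00. Its changes were -0.02 ± 0.08 (SE, adjusted p = 0.836) and -0.53 ± 0.08 (SE, adjusted p = 1.35e-06) in PC9 and -0.34 ± 0.08 (SE, adjusted p = 0.00167) and -0.30 ± 0.08 (SE, adjusted p = 0.00430) in H1650. MYC mRNA was thus not called in erlotinib-treated PC9, and whether MYC had a part in the change of the members was not tested.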
